A study of Mus musculus with 32 samples.

Results

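The genes examined were the protein-coding mouse genes named as forkhead (Fox), SRY-box (Sox) or T-box (Tbx) transcription factors, chosen by symbol alone: Fox followed by a letter and a number, Sox followed by a number, or Tbx followed by a number. The rule took 76 of 21887 protein-coding genes, made up of 44 Fox, 19 Sox and 13 Tbx genes. The histone marks H3K27me3, H2AK119ub and H3K4me1 were profiled by CUT&Tag, an assay in which an antibody directs a transposase to cut and tag DNA beside the mark, in HoxB8 cells, an immortalised mouse bone marrow line grown with estrogen. All libraries came from cells kept for 48 h after estrogen removal. The control cells carried a non-targeting guide RNA and the empty pMICH vector. The Asxl1 guide cells carried the Asxl1 B2 guide RNA with the empty vector, the CSF3R T618I cells carried the non-targeting guide with a vector for the mutant receptor CSF3R T618I, and the double cells carried both. For each mark there were 2 control, 3 Asxl1 guide, 3 CSF3R T618I and 2 double libraries, 30 in all. The labels give no separate clones or cultures for the replicate numbers, so p-values measure the spread between these libraries, which may be technical. These marks cannot check the edit of Asxl1.

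Fox proteins bind DNA through a forkhead domain, Sox proteins through an HMG box and T-box proteins through a T domain, and many members of each family specify tissues and body regions during embryonic development. Polycomb repressive complexes hold such genes silent in cell types that do not use them. PRC2 places trimethylation on a lysine of histone H3 (H3K27me3), PRC1 places a ubiquitin on a lysine in the tail of histone H2A (H2AK119ub), and the ASXL1 and BAP1 proteins form an enzyme that removes that ubiquitin. H3K4me1, the third mark, is found at enhancers and at the flanks of active promoters. CSF3R is the receptor for granulocyte colony-stimulating factor, and T618I is an activating mutation found in neutrophilic leukaemia.

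The promoters of 4 of these genes are shown because they stand for the 4 patterns described below. They are the 250 bases upstream of the start site, from RefSeq on GRCm38.p6, 5′ to 3′ on the gene's strand, with every CG dinucleotide in capitals. Foxd3, a neural crest and pluripotency factor, had the widest difference in H3K27me3 between double and CSF3R T618I cells among the 47 genes tested for that mark, and its promoter at chr4:99656049-99656298 on the plus strand holds 21 CG. Sox2, a pluripotency and neural stem cell factor at chr3:34649745-34649994 on the plus strand, had H3K27me3 without H2AK119ub at the 5% minimum used below and holds 27 CG. Tbx10, at chr19:3992502-3992751 on the plus strand, had the reverse at that minimum and holds 3 CG. Foxo3, a stress and quiescence factor downstream of insulin signalling, is shown at chr10:42276696-42276945 on the minus strand. It had H3K4me1 and neither Polycomb mark at that minimum and holds 31 CG.
Foxd3: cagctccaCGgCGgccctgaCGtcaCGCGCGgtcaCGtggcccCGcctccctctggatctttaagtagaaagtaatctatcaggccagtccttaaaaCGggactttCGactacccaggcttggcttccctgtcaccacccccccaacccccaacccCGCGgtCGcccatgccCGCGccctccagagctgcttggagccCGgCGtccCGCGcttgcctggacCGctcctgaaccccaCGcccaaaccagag
Sox2: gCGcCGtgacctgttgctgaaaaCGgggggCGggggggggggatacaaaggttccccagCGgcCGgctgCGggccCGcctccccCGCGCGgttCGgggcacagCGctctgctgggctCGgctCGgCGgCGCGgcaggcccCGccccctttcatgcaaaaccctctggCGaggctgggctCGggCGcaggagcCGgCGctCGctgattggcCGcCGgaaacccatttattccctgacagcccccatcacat
Tbx10: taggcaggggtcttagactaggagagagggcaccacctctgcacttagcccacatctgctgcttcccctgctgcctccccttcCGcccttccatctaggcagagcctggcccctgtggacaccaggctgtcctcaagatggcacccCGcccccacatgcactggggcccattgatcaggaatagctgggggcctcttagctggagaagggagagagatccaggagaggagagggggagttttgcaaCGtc
Foxo3: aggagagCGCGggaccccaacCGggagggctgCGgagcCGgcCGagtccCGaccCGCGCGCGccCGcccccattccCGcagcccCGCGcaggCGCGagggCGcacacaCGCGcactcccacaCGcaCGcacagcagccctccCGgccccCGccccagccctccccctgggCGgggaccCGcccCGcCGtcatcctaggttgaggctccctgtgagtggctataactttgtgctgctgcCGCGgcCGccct

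The sequence table held a promoter for 50 of the 76 genes. Genes were grouped by the mean coverage of the whole window at the minimum used below, not by marks at the promoter itself. The median CG count was 17 in the 31 with a Polycomb mark at that minimum, with a range of 3 to 35. It was 7 in the 17 with none of the 3 marks at that minimum, with a range of 1 to 48. Over all 17492 genes with a promoter in the table the median was 10. At least 10 CG were present in 80.6% of promoters in the Polycomb group, 35.3% in the group with none and 50.4% of all promoters of this length. The group with none still held covered start sites. Within 250 bp of the Sox6 start, H3K27me3 covered 100% in both control and all CSF3R T618I libraries. It covered 0% there in Asxl1 guide replicates 1 and 3 and double replicate 1. At Sox30 it covered 100% in control replicate 2 and 0% in control replicate 1. The contrast is thus not one between marked and unmarked promoters. Tbx10, with 3 CG, sat at the low end of the Polycomb group, and the counts describe these promoter sequences and nothing bound there.

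The value for each gene in each library was the percent of its window, the gene with 5 kb on each side, that lay inside the authors' peaks, and differences between genotypes are in percentage points. The windows ran from 11.3 kb to 964 kb with a median of 16.7 kb. In 56 of them lay no other protein-coding gene, and the other 20 also held a neighbour, such as Acy3, Nudt8 and Doc2g beside Tbx10 or Rnf157 beside Foxj1. The deposited lists give the position of each peak and no height or read count, so sequencing depth is unknown. The number of peaks per library ran from 6071 to 45373 for H3K27me3, from 10866 to 33969 for H2AK119ub and from 14479 to 21185 for H3K4me1. The H3K27me3 peaks of the 3 Asxl1 guide libraries covered 4.73, 53.0 and 12.4 Mb, so replicate 2 stood far above the other 2, while the control, CSF3R T618I and double libraries covered 15.9 to 22.7, 31.3 to 42.2 and 14.2 to 19.2 Mb. In such bulk samples, fewer cells with a mark and less signal per cell cannot be told apart. Among 12 myeloid progenitor markers, 10 had an H3K4me1 mean of at least 5% of the window, with a median of 27.3% over the list, and 10 had no H3K27me3 peak in any library. No H3K4me1 peak lay at any of 6 T cell markers. Of 4 epithelial markers 3 had no H3K4me1 peak in any library. The 1 that was tested, Cdh1, had 7.80% in control, 23.1% in CSF3R T618I and 38.6% in double cells. In double against CSF3R T618I cells the H3K27me3 mean over 5 erythroid markers was 0.740% to 0.925% against 10.7% to 13.6%, and over 4 neural markers 1.86% to 3.59% against 6.94% to 10.96%. It was also lower over the T cell, B cell, stromal and epithelial lists, and at 2683 of the 2795 genes tested. The myeloid progenitor list was at 0% in CSF3R T618I and at 0.0182% to 0.0959% in double libraries. The part of these markers in the results below was not tested.

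Most of the 76 genes carried Polycomb marks, and few carried H3K4me1. The mean H3K27me3 coverage over the 10 libraries reached 5%, the minimum for the tests below, at 47 genes, which is 61.8% of them against 12.8% of all genes. H2AK119ub reached it at 43 genes, 56.6% against 13.6% of all genes. H3K4me1 reached it at 4 genes, 5.26% against 14.1%. A peak was present in every library at 45, 39 and 11 genes for the 3 marks in that order, and in none at 15, 8 and 55 genes. Both Polycomb marks reached the minimum together at 40 genes, 52.6% against 8.37% of all genes.

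By family, H3K27me3 reached the minimum at 25 of 44 Fox, 13 of 19 Sox and 9 of 13 Tbx genes, and H2AK119ub at 24, 11 and 8. Within each family the count differed from role to role. H3K27me3 reached it at 23 of 29 Fox genes of developmental function, such as Foxa1 and Foxa2 of endoderm and Foxc1 and Foxc2 of mesoderm and vessels. It did so at 2 of the 4 FoxO genes, Foxo1 and Foxo6, at 0 of the 4 FoxP genes and at 0 of 7 broadly expressed Fox genes such as Foxk1, Foxm1 and Foxj3, and those 7 had no H3K27me3 peak in any library. In the Sox family the SoxE genes of neural crest, cartilage and testis (Sox8, Sox9, Sox10) and the SoxF genes of endothelium and endoderm (Sox7, Sox17, Sox18) reached it at 3 of 3 each. SoxB2 reached it at 2 of 2, SoxB1 and SoxC at 2 of 3 each, and SoxD at 1 of 3, which was Sox13. In the T-box family the 4 genes of the Tbx2 group, Tbx2, Tbx3, Tbx4 and Tbx5, which pattern heart and limb, reached it for both Polycomb marks. The Tbx1 group did so at 4 of 6 genes for H3K27me3 and 3 of 6 for H2AK119ub.

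The widest H3K27me3 coverage in each family belonged to Foxf1, a factor of lateral mesoderm and lung, at a mean of 84.8% over the 10 libraries, to the neural factor Sox1 at 69.2%, and to Tbx1, a factor of pharyngeal development, at 83.8%. For H2AK119ub it belonged to Foxf1 at 75.9%, Sox21 at 67.9% and Tbx2 at 86.9%. The Foxl2 gene of the ovary was covered by H3K27me3 over 100% of its window in both control libraries. H3K27me3 was above the minimum without H2AK119ub at 7 genes, 9.21% against 4.40% of all genes, among them Foxn4, Sox2, Sox11, Tbx18 and Tbx20. Foxs1, Sox4 and Tbx10 had the reverse, 3.95% against 5.25%. This split follows the mean over the whole window, and the other mark can still be present. Within 250 bp of the Tbx20 start site H2AK119ub covered 100% in every Asxl1 guide and double library. At the Tbx10 start site H3K27me3 covered 100% in CSF3R T618I replicates 2 and 3. A further 23 genes reached the minimum for none of the 3 marks, 30.3% against 70.5% of all genes, among them Foxm1 of the cell cycle, Foxp3 of regulatory T cells, the germ cell gene Sox30 and Tbx6 of the paraxial mesoderm. Foxm1, Foxp3, Foxn3 and Tbx6 had no H3K27me3 peak in any library. Sox6, of erythroid cells and cartilage, held H3K27me3 over a mean of 1.71% of a window of 580 kb. Sox3, a SoxB1 factor of the X chromosome, just missed the minimum at 4.43%, with 11.2% and 24.9% in CSF3R T618I replicates 2 and 3 and 3.32% or less in every other library.

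Coverage by the 2 Polycomb marks ran in parallel across the 76 windows. Pearson's r between the genotype means was 0.78 in control, 0.82 in Asxl1 guide, 0.79 in CSF3R T618I and 0.84 in double cells, a description over 76 windows that share libraries, lengths and neighbours. H3K27me3 was the larger of the 2 at 45 genes in control, 44 in Asxl1 guide, 53 in CSF3R T618I and 33 in double cells. These counts were not adjusted for the length covered by each mark. H3K27me3 peaks covered 31.3 to 42.2 Mb and H2AK119ub peaks 18.8 to 28.7 Mb in CSF3R T618I libraries. In double libraries they covered 14.2 to 19.2 Mb and 22.6 to 39.1 Mb. Foxj1, the regulator of motile cilia, had more H2AK119ub than H3K27me3 in control. Its control H2AK119ub values were 44.6% and 46.6%, and its H3K27me3 values were 0% and 4.39%. The scatter of the 2 marks shows Foxj1 and Tbx10 at its left and Sox1, Sox14 and Foxe1 at its lower right.

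**Figure D1:**
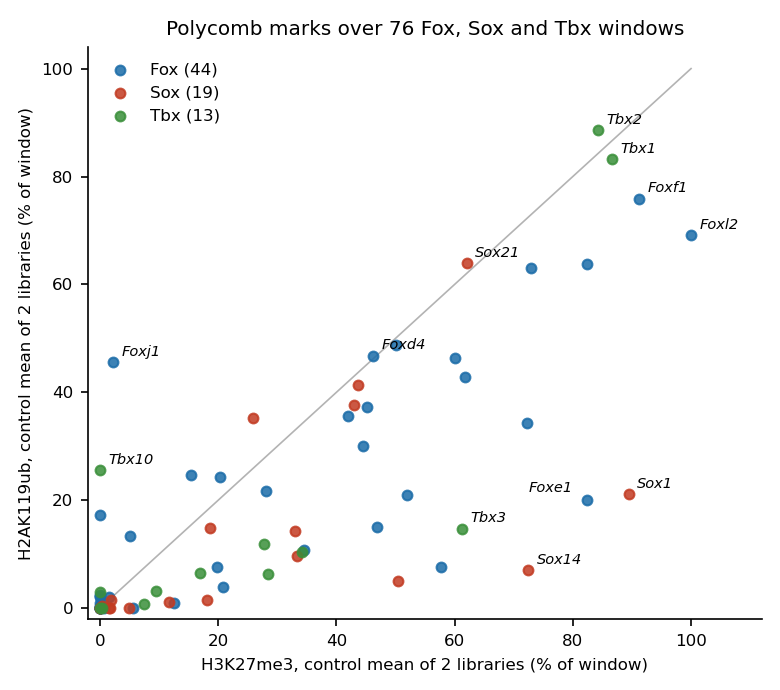
Each point is 1 of the 76 genes, with the control mean of 2 libraries for H3K27me3 on the x axis and for H2AK119ub on the y axis, both in percent of the window, and the line marks equal values. Most Fox (blue), Sox (red) and Tbx (green) points lie below the line or near 0, while Foxj1 and Tbx10 lie above it.

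H3K27me3 coverage over the 76 genes was highest in CSF3R T618I cells by genotype mean, in each family. The mean over the genes was 25.0% and 28.8% in the control libraries, 7.89%, 31.7% and 15.9% in Asxl1 guide, 34.7%, 33.6% and 36.9% in CSF3R T618I, and 19.1% and 16.6% in double libraries. The CSF3R T618I libraries were the 3 highest and did not overlap any other genotype, and the Asxl1 guide libraries ran from the lowest to just under them. By genotype this is 26.9% ± 2.74 (SD, n = 2), 18.5% ± 12.1 (SD, n = 3), 35.1% ± 1.72 (SD, n = 3) and 17.9% ± 1.81 (SD, n = 2). Over all 21887 genes the genotype means were 2.53%, 2.27%, 4.275% and 1.94% in that order, so CSF3R T618I was highest there too. Asxl1 guide replicate 2, at 4.56% over all genes, lay within the CSF3R T618I range of 3.81% to 4.84%. For H2AK119ub the means over the 76 genes were 17.7% ± 0.322, 14.1% ± 1.004, 18.8% ± 1.71 and 17.2% ± 4.92 in that order. The 3 Asxl1 guide libraries lay at 13.1%, 14.1% and 15.1%, below both control libraries at 17.98% and 17.5%, and the double libraries at 20.7% and 13.8% spanned that gap. For H3K4me1 the means were 1.46%, 1.47%, 1.29% and 0.880%.

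**Figure D2:**
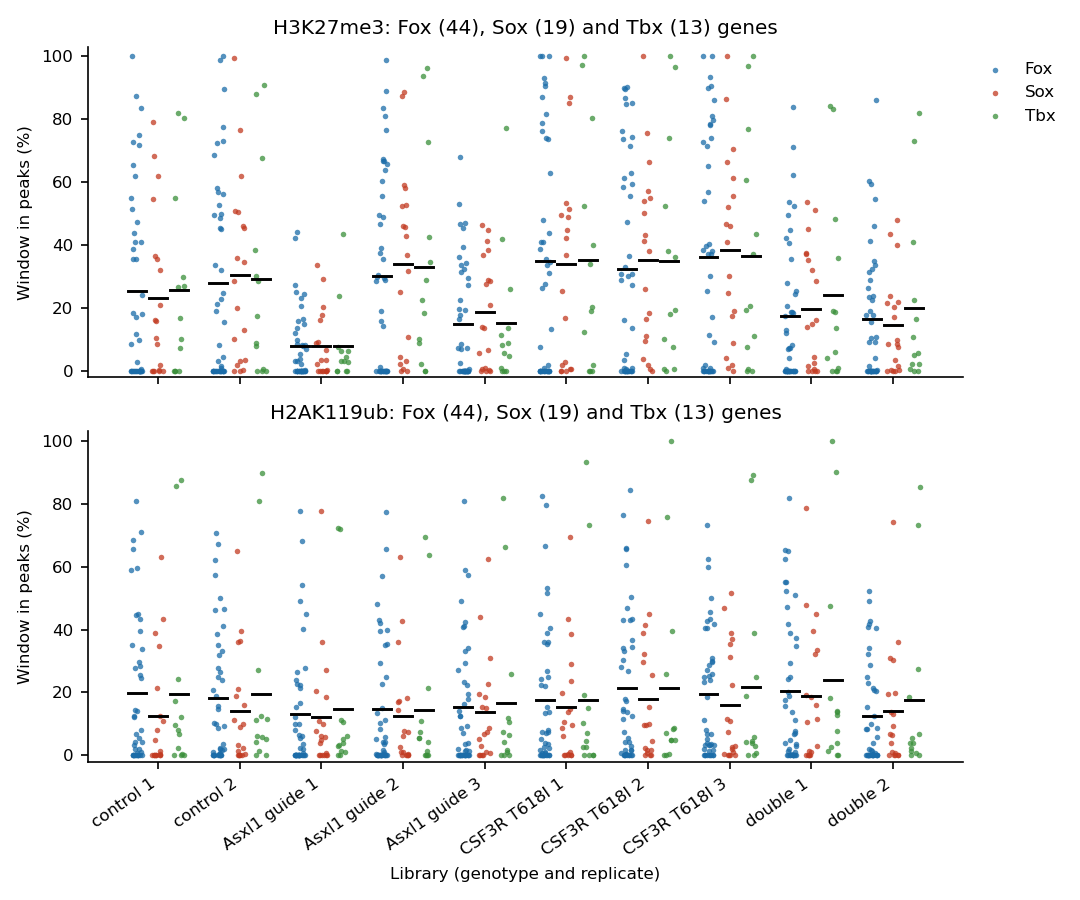
Each point is 1 gene in 1 library, with the percent of its window in H3K27me3 peaks above and in H2AK119ub peaks below, by family (colours) and library (x axis), and each bar is a family mean. The H3K27me3 bars of the CSF3R T618I libraries and of Asxl1 guide replicate 2 are the highest in each family, and replicates 1 and 3 of the Asxl1 guide stand far below replicate 2.

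The question of whether the Asxl1 guide changes H3K27me3 on its own gave no called gene. Of the 47 genes tested, 0 passed an adjusted p of 0.05 in limma, against a background of 0% of the 2795 genes tested, and 6 had an unadjusted p under 0.05. The difference was below 0 at 37 genes and above 0 at 10, with a median of -13.7 points against -1.64 over all genes tested. The lowest p among the 47 was at Foxd4. Its values were 35.6% and 56.7% in control and 2.07%, 15.7% and 2.48% in Asxl1 guide libraries, so the groups did not overlap. The difference was -39.4 ± 8.45 points (SE) with an adjusted p of 0.7907 in limma. All Asxl1 guide libraries lay below both controls at 6 genes (Foxa1, Foxb2, Foxd1, Foxd4, Foxl2 and Sox21), against a background of 7.33% of genes. The count depends on Asxl1 guide replicate 2, since without it 25 of the 47 genes were called lower. The guide libraries left covered 4.73 and 12.4 Mb, against 15.9 and 22.7 Mb in control. The share of all genes called without it is not given here, so the count shows nothing particular to these genes.

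The comparison of CSF3R T618I with control cells asked what the mutant receptor changes without the guide. H3K27me3 coverage was above control at 45 of the 47 genes, with a median difference of 10.5 points against 9.17 over all genes. Limma called 0 of the 47 in this comparison, where 1% of all genes were called, and 7 had an unadjusted p under 0.05. At 31 genes all 3 CSF3R T618I libraries lay above both controls, against a background of 70.1% of genes. Foxd2, a forkhead gene of kidney and craniofacial mesenchyme, had the lowest p. It had 11.7% and 19.2% in control and 38.6%, 55.6% and 56.8% in CSF3R T618I libraries, without overlap, a difference of 34.9 points with an adjusted p of 0.06486. Foxj1 went from 0% and 4.39% to 34.5%, 36.5% and 37.2%, a difference of 33.8 points with an adjusted p of 0.08048. Foxd4 was one of the 2 genes below control, with 26.5%, 13.7% and 37.3%. Without Asxl1 guide replicate 2, which enters the shared estimate of spread, 12 genes were called higher, and without CSF3R T618I replicate 1 Foxd2 was. The share of all genes called in those settings is not given here.

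H3K27me3 was lower in double than in CSF3R T618I cells at all 47 genes tested, and 9 of them fell by limma's test. The 9 are 19.1% of the 47, against a background of 11.9% of all genes lower. They were 7 of 25 Fox genes, Foxb1, Foxc1, Foxc2, Foxd1, Foxd2 and Foxd3 among them, and Sox2 and Sox18 of 13 Sox genes. None of the 9 Tbx genes was called, and 5 of them had an unadjusted p under 0.05. The median difference was -24.9 points over the 47 genes against -12.6 over all genes, and by family it was -28.9 for Fox, -27.5 for Sox and -18.8 for Tbx. Both double libraries lay below all 3 CSF3R T618I libraries at 46 of the 47 genes, against a background of 83.5%, with Sox11 as the exception. A value below 0 in this comparison was shared by 2683 of the 2795 genes tested.

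Foxd3 had 90.7%, 89.5% and 90.7% of its window in H3K27me3 peaks in the CSF3R T618I libraries and 20.8% and 23.4% in the double libraries. In control it had 47.5% and 56.4%, and in Asxl1 guide 3.64%, 67.3% and 36.1%. The double libraries were thus below both control and CSF3R T618I libraries, and the Asxl1 guide libraries overlapped the control and double ranges. The difference from CSF3R T618I was -68.2 ± 14.6 points (SE, adjusted p = 0.02844 in limma). Foxc2, needed for lymphatic vessels and somites, had 73.8%, 73.8% and 72.7% in CSF3R T618I and 12.97% and 17.7% in double libraries, with 65.6% and 49.9% in control. Its difference was -58.1 ± 12.6 points (adjusted p = 0.02872 in limma). Foxc2 shares 1.21 kb of its window with Foxl1, so the 2 values are not fully separate.

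Foxd1, a factor of kidney stroma and retina, had 91.5%, 61.4% and 71.5% in CSF3R T618I libraries against 25.3% and 33.7% in double libraries, a difference of -45.3 ± 9.76 points (adjusted p = 0.02844 in limma). Foxb1, a factor of the mammillary hypothalamus, had 78.9%, 58.5% and 78.2% against 24.6% and 23.8%. Foxd2 had 38.6%, 55.6% and 56.8% against 12.1% and 10.7%, the lowest adjusted p of the 9 at 0.02414. In these 3 genes the groups did not overlap. Foxc1, of the anterior eye and vessels, differed by -31.0 points (adjusted p = 0.03855).

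The 2 Sox genes were Sox2 and Sox18, a factor of lymphatic endothelium. Sox2 had 37.0%, 26.1% and 30.2% in CSF3R T618I and 2.41% and 3.61% in double libraries, with 16.0% and 20.1% in control and 3.61%, 31.8% and 13.7% in Asxl1 guide libraries. Double libraries were below control, and the Asxl1 guide libraries ran from the double into the CSF3R T618I range. The difference was -28.1 ± 7.49 points (adjusted p = 0.04672 in limma). Sox18 differed by -27.5 points (adjusted p = 0.04048), with 53.4%, 55.1% and 55.5% against 32.2% and 22.03%.

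Wide differences also stood among genes that missed the test in this comparison. Sox1 had 99.6%, 100% and 100% in CSF3R T618I and 51.2% and 20.2% in double libraries, a difference of -64.2 points with an adjusted p of 0.06524, and its double libraries lay far apart. Foxa1 had 93.1%, 85.1% and 86.2% against 49.4% and 29.0%, a difference of -48.9 points with an adjusted p of 0.05386. Sox9 differed by -30.8 points, Foxl2 by -30.9, Tbx3 by -32.4 and Sox10 by -27.5, with adjusted p from 0.09939 to 0.1851. Tbx5, of heart and forelimb, differed by -21.0 points with an adjusted p of 0.07636, from 33.8%, 36.3% and 37.1% against 18.8% and 10.6%. At the genes named above for the widest coverage, Foxf1 differed by -10.6 points (adjusted p = 0.5333), Tbx2 by -16.9 (adjusted p = 0.4134) and Tbx1 by -18.8 (adjusted p = 0.2576). Tbx2 had 80.4% and 88.2% in control, 100% in every CSF3R T618I library and 84.3% and 82.0% in double libraries, so the double libraries lay within the control range. Of the Sox genes with roles in blood and lymphoid cells, Sox17 differed by -15.2 points (adjusted p = 0.1004), Sox12 by -16.8 (adjusted p = 0.2995) and Sox13 by -5.61 (adjusted p = 0.3930).

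These 9 calls rested on few libraries. The counts that follow are given without the share of all genes called in each setting, so they show nothing particular to these genes. Without Asxl1 guide replicate 2 the count was 40, and without Asxl1 guide replicate 1 it was 19. It was 1 without control replicate 1, control replicate 2, Asxl1 guide replicate 3 or CSF3R T618I replicate 1, and 0 without CSF3R T618I replicate 2 or 3 or either double replicate. With each library's covered length as a covariate it was 19, holding all 9. Covered length moves with this comparison, at 31.3 to 42.2 Mb against 14.2 to 19.2 Mb. Where peaks overlapping the IgG peaks were left out, the Foxb1, Foxc2, Foxd1, Foxd3, Sox2 and Sox18 calls held. Those of Foxc1 and Foxd2 did not, at -10.6 and -20.04 points. IgG libraries, made with a nonspecific antibody, had a peak in 41 of the 76 windows, with a median of 0.552% of the window and a highest value of 15.9% at Sox7.

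**Figure D3:**
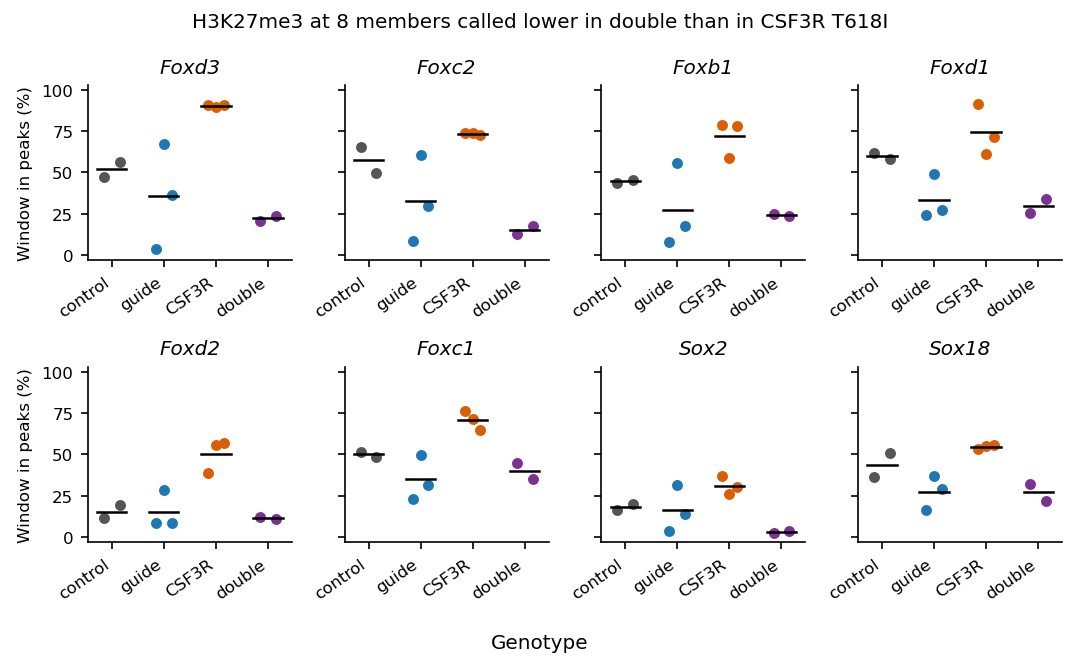
Each panel is 1 of 8 of the genes called lower for H3K27me3 in double than in CSF3R T618I cells, with the percent of the window in peaks on the y axis, 1 point per library by genotype and a bar at the mean. In every panel the 2 double points lie below the 3 CSF3R T618I points, and the 3 Asxl1 guide points are widely spread.

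The uncovered stretch of the window in double cells differed from gene to gene. At Foxd3 the 5 kb upstream flank was covered over 100% in all 3 CSF3R T618I libraries, 55.0% and 49.0% in control and 0% in both double libraries. The downstream flank kept 51.4% and 50% in double libraries, against 79.4% to 83.4% in CSF3R T618I. Within 250 bp of the Foxd3 start site, which takes in the promoter printed above, coverage was 100% in every CSF3R T618I library, 40.0% and 60.0% in control and 0% in every Asxl1 guide and double library. At Sox2 the same stretch was covered over 100% in every control and CSF3R T618I library and in Asxl1 guide replicate 2, and over 0% in Asxl1 guide replicates 1 and 3 and both double libraries. At Foxd2 no H3K27me3 peak lay upstream in any library, and the downstream flank held 97.4%, 100% and 100% in CSF3R T618I and 30.4% and 27% in double libraries. At Sox18 the gene body stayed covered over 90.9% and 100% in the double libraries, and the flanks differed.

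The longest H3K27me3 domains were found in CSF3R T618I cells. The median length of the longest H3K27me3 peak touching each of the 47 windows was 4.25 and 5.50 kb in control, 1.4, 6.75 and 2.70 kb in Asxl1 guide, 8.40, 8.40 and 10.1 kb in CSF3R T618I, and 3.65 and 2.60 kb in double libraries. The CSF3R T618I libraries were again above all others, without overlap. Over all 2795 genes tested the medians were shorter, at 5.10, 5.15 and 5.95 kb in CSF3R T618I and 2.45 and 1.75 kb in double libraries. In the first kb after the start site the mean coverage over the 29 tested genes with a start in the table was 68.4% and 86.7% in control, 49.5%, 88.0% and 69.3% in Asxl1 guide, 87.1%, 93.2% and 94.6% in CSF3R T618I, and 58.3% and 65.8% in double libraries. Asxl1 guide replicate 2 thus lay within the CSF3R T618I range, and the double libraries lay below it. In the stretch from 5 to 2.5 kb upstream it was 53.7%, 52.9% and 60.4% in CSF3R T618I against 31.3% and 20.3% in double libraries. Over all tested genes that upstream stretch held 24.7% to 29.6% in CSF3R T618I and 13.3% and 8.29% in double libraries, below the value for these factors in every one of these libraries.

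**Figure D4:**
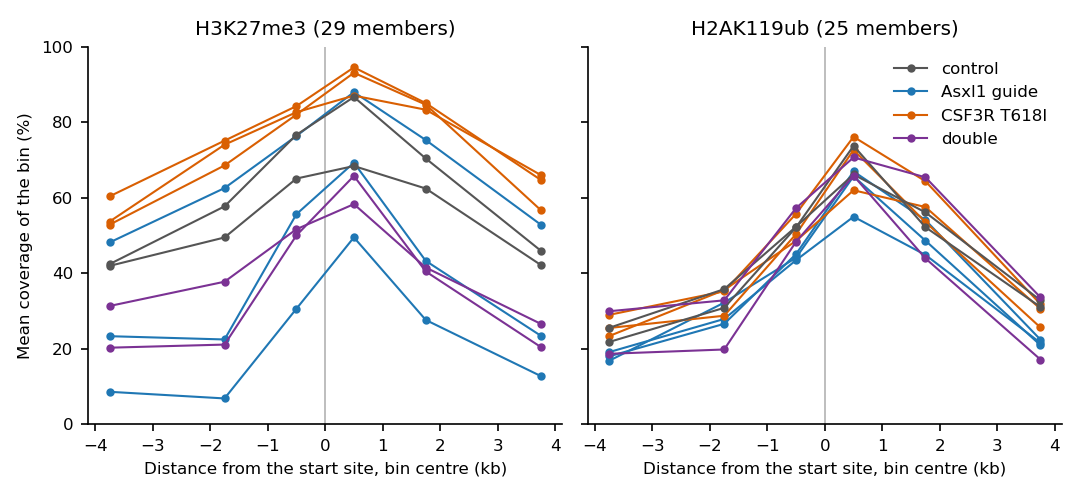
Mean coverage in percent (y axis) of bins from 5 kb upstream to 5 kb downstream of the start site (x axis, kb), 1 line per library, coloured by genotype, for H3K27me3 and H2AK119ub over the tested genes that have a start site in the sequence table. In the first kb after the start the H3K27me3 lines of the CSF3R T618I libraries lie at 87.1% to 94.6%, with Asxl1 guide replicate 2 at 88.0% among them and control replicate 2 at 86.7% just below, and the double lines lie at 58.3% and 65.8%.

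Double and Asxl1 guide cells differ by the mutant receptor. For H3K27me3 limma called 0 of the 47 genes there, against a background of 0%, and 0 had an unadjusted p under 0.05. The median difference was -2.86 points against -1.53 over all genes. Tbx2 had the lowest p, 0.1066 before adjustment, with 23.8%, 93.9% and 41.9% in Asxl1 guide and 84.3% and 82.0% in double libraries, which overlap. Without Asxl1 guide replicate 2, 2 genes were called higher, and the share of all genes called in that setting is not given here. The interaction, which asks whether the guide's effect differs with the receptor, gave 0 calls in limma against a background of 0%, with 4 genes at an unadjusted p under 0.05. Its median was -13.2 points against -10.3 over all genes, and the lowest p was at Foxd2, -38.8 points with an adjusted p of 0.4197. The values in the interaction were below 0 at 43 of the 47 genes, and at 2659 of the 2795 tested.

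H2AK119ub was lower in Asxl1 guide than in control cells at 3 of the 43 genes tested, Foxd4, Foxj1 and Tbx10. They are 6.98% of the 43, against a background of 9.23% of all genes lower, and 9 genes had an unadjusted p under 0.05. The median difference was -4.29 points against -6.04 over all genes, and it was below 0 at 30 of the 43 genes. All 3 Asxl1 guide libraries lay below both controls at 17 genes, against a background of 58%, and above both at 3 genes, Foxa2, Sox4 and Sox17, against a background of 5%.

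Foxj1 fell from 44.6% and 46.6% in control to 9.80%, 5.07% and 12.5% in Asxl1 guide libraries, with 36.2%, 50.4% and 62.5% in CSF3R T618I and 65.2% and 41.9% in double libraries. The Asxl1 guide libraries were the 3 lowest and overlapped no other genotype. The difference from control was -36.5 ± 8.17 points (adjusted p = 0.03352 in limma). Tbx10 fell from 24.2% and 27.1% to 1.49%, 0% and 1.19%, a difference of -24.8 ± 5.86 points (adjusted p = 0.03700 in limma). The Tbx10 start site, within 250 bp, was covered over 100% in both controls and 0% in the 3 Asxl1 guide libraries. Foxd4 fell from 43.5% and 50.1% to 24.0%, 29.4% and 19.5%, a difference of -22.5 ± 4.06 points (adjusted p = 0.01825 in limma). Leaving out control replicate 1, control replicate 2 or Asxl1 guide replicate 1 ended all 3 calls, and 1 gene was called without Asxl1 guide replicate 3. Without Asxl1 guide replicate 2, 1 of the 3 was kept. The share of all genes called in those settings is not given here. Foxj1 and Foxd4 also have IgG peaks over 6.76% and 2.90% of their windows, and without the peaks that overlap IgG peaks their differences were -17.7 and -3.04 points and not called. Tbx10 has no IgG peak and stayed called.

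In CSF3R T618I against control cells, 1 of the 43 genes rose in H2AK119ub, Foxc2, against a background of 0.47% of all genes higher, and 4 had an unadjusted p under 0.05. Foxc2 had 5.50% and 9.82% in control and 26.7%, 26.7% and 25.9% in CSF3R T618I libraries, without overlap, a difference of 18.8 ± 2.99 points (adjusted p = 0.03495 in limma). It was not called without either control library, any Asxl1 guide library, or CSF3R T618I replicate 2 or 3, and without either double library 2 genes were called. The share of all genes called with a library left out is not given here. The median over the 43 genes was 1.51 points against 2.56 over all genes. Sox4, a SoxC factor of lymphoid and mesenchymal progenitors, had 0% in both controls and 19.95%, 15.2% and 22.3% in CSF3R T618I libraries, with an adjusted p of 0.09655.

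Double against CSF3R T618I cells gave 1 higher and 3 lower calls for H2AK119ub among the 43 genes, against backgrounds of 3.59% higher and 6.98% lower. The median was -1.52 points against -2.62 over all genes. Foxc2 fell to 17.7% and 9.82% in double libraries, a difference of -12.7 points (adjusted p = 0.03481 in limma). Tbx10 had 19.1%, 39.4% and 38.8% in CSF3R T618I and 14.0% and 5.37% in double libraries, a difference of -22.7 points (adjusted p = 0.04417). Foxd3 had 22.2%, 17.4% and 18.6% against 6.63% and 0%, a difference of -16.1 points (adjusted p = 0.04862). Each of these 3 genes was without overlap between the groups. Foxo1, a factor of insulin signalling and lymphocytes, went the other way, with 7.41%, 13.7% and 8.01% in CSF3R T618I and 29.5% and 20.6% in double libraries, a difference of 15.3 points (adjusted p = 0.03800 in limma).

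The Foxo1 difference was clearest in the 5 kb downstream of the gene. That flank was covered over 87.8% and 66.8% in control, 87.8%, 77% and 73% in Asxl1 guide, 0%, 27% and 0% in CSF3R T618I, and 69.8% and 51.2% in double libraries. The CSF3R T618I libraries were the 3 lowest, without overlap. The Foxo1 window has IgG peaks over 4.14% of its length, and without peaks overlapping them the difference was 5.71 points and not called. Of these 4 calls, 0 held without any one of the Asxl1 guide libraries or without CSF3R T618I replicate 2 or 3. The counts that follow come without the share of all genes called in each setting, so they show nothing particular to these genes. The count was 1 without either control library, 2 without double replicate 1 and 7 without CSF3R T618I replicate 1, and without double replicate 2 Foxc2, Foxd3 and Tbx10 were no longer called.

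H2AK119ub was higher in double than in Asxl1 guide cells at 4 of the 43 genes, Foxc2, Foxj1, Sox4 and Tbx21, against a background of 9.1% of all genes higher. The median was 2.93 points against 6.06 over all genes, and 12 genes had both double libraries above all Asxl1 guide libraries, against a background of 46.5%. Foxj1 differed by 44.4 ± 8.17 points (adjusted p = 0.01433 in limma), from the values given above. Sox4 had 6.09%, 7.78% and 5.07% in Asxl1 guide and 33.5% and 19.95% in double libraries, a difference of 20.4 ± 4.05 points (adjusted p = 0.01937 in limma). Tbx21, which encodes the T-bet factor of type 1 lymphocytes, had 6.04%, 10.98% and 11.7% against 47.5% and 27.4%, a difference of 27.9 ± 5.62 points (adjusted p = 0.02020 in limma). Foxc2 differed by 12.3 points (adjusted p = 0.03833).

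In Foxj1, Sox4 and Tbx21 the 2 groups did not overlap, and the 2 double libraries lay far apart. Covered length was 39.1 and 22.6 Mb in the double and 11.8, 13.4 and 16.7 Mb in the Asxl1 guide libraries. With it as a covariate 0 of the 4 were called. Without Asxl1 guide replicate 1 the count was 0. Without Asxl1 guide replicate 2 the 4 calls were lost and 1 other gene was called, and without Asxl1 guide replicate 3, 2 of the 4 held. The 4 calls were also lost without double replicate 1, which leaves 1 double library. The share of all genes called with a library left out is not given here, so such counts show nothing particular to these genes. The Foxc2 call was also lost without either control or without CSF3R T618I replicate 2 or 3. Without peaks overlapping IgG peaks, the Foxj1 difference turned to -5.92 points. The H2AK119ub interaction gave 0 calls among the 43 genes in limma against a background of 0%, with 4 at an unadjusted p under 0.05. Foxj1 had the lowest p, 40.4 points with an adjusted p of 0.2848, and 3 genes were called without double replicate 2.

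**Figure D5:**
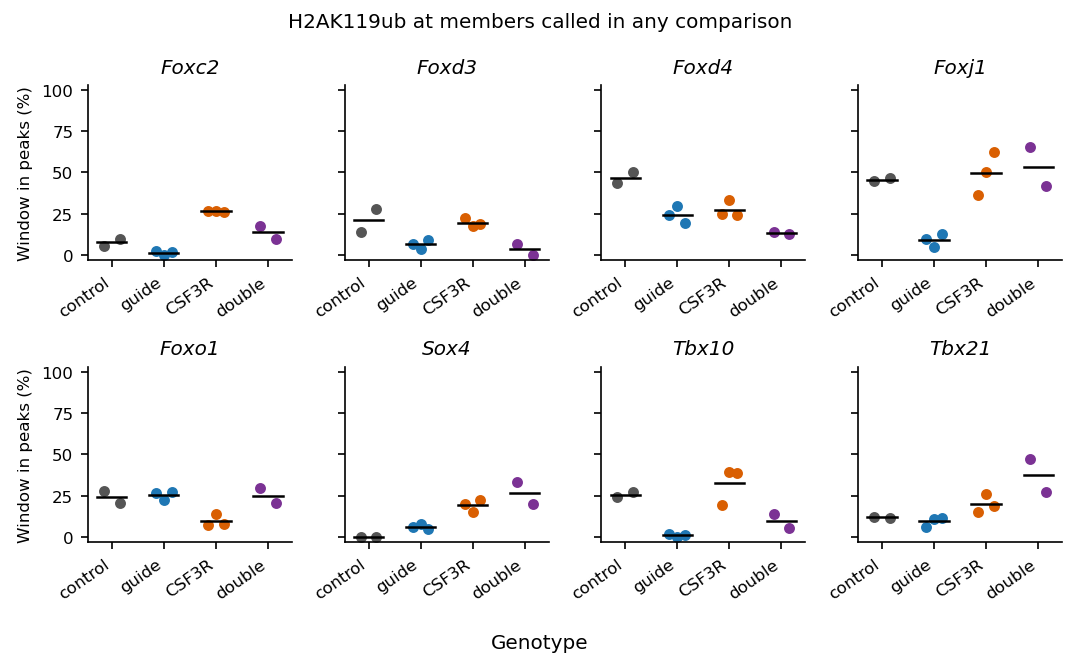
Each panel is 1 of the 8 genes called for H2AK119ub in any of the comparisons, with the percent of the window in peaks on the y axis, 1 point per library by genotype and a bar at the mean. Foxj1 and Tbx10 are lowest in Asxl1 guide cells, Foxo1 in CSF3R T618I cells, and the double points of Tbx21 and Sox4 lie above the Asxl1 guide points.

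H3K4me1 marked only Fox genes among the 76 at the 5% minimum. They were Foxs1 of pericytes and neural crest, at a mean of 30.3% over the 10 libraries, Foxk1 at 19.4%, Foxo3 and Foxp1. Foxk1 and Foxp1 are regulators of metabolism and of lymphoid and monocyte development. No Sox or Tbx gene reached it, with Tbx6 the highest of these at 4.13%. Because Foxp1 spans a window of 607 kb, a small percent there is a long stretch: its peaks covered 57.9 and 54.8 kb in control, 60.2, 45.4 and 49.8 kb in Asxl1 guide, 50.9, 45.5 and 55.1 kb in CSF3R T618I, and 44.9 and 27.9 kb in double libraries. Foxn3, in a window of 384 kb, missed the minimum but held 26.1 and 22.4 kb in control and 9.70, 10.6 and 15.8 kb in CSF3R T618I libraries. At Foxk1, Foxo3 and Foxp1 the H3K4me1 coverage lay in the gene body in every library, with 0% in both flanks. The start sites of the 50 genes in the sequence table, within 250 bp, touched no H3K4me1 peak in any library. Over all 17492 start sites 1.74% to 3.54% did, so 0 of 50 lies near that share and shows nothing particular to these genes.

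At Foxs1 the mark was lower in double than in Asxl1 guide cells. Its values were 38.5% and 42.0% in control, 45.6%, 40.3% and 39.8% in Asxl1 guide, 15.5%, 17.7% and 38.9% in CSF3R T618I, and 14.6% and 10.2% in double libraries. Double and Asxl1 guide libraries did not overlap, and CSF3R T618I replicate 3 stood with the controls. The difference between double and Asxl1 guide was -29.5 ± 6.12 points (adjusted p = 0.01255 in limma), the 1 call among the 4 genes in that comparison, against a background of 8.99% of all genes lower. It was lost without double replicate 1 or without double replicate 2. Most of the coverage lay in the 5 kb flank at lower coordinates, where it was 78.1% to 82.1% in control and Asxl1 guide libraries. The other flank held 6% and 17% in control, 20.8%, 11% and 9% in Asxl1 guide, 5%, 5% and 11% in CSF3R T618I, and 4% and 0% in double libraries, and the gene itself was at 0% in all but 1 library. In the same comparison 3 of 10 tested myeloid progenitor markers were called higher in H3K4me1, against a background of 9.71% of all genes higher. They were Prtn3 by 31.6 points, Cebpe by 21.2 points and Gfi1 by 16.96 points. The mean over that list of 12 genes was 23.8% to 23.9% in control, 19.1% to 23.9% in Asxl1 guide, 29.0% to 34.8% in CSF3R T618I and 29.6% to 35.03% in double libraries. The epithelial marker Cdh1 was also called higher in double than in Asxl1 guide cells, by 33.2 points, with 38.6% against 5.40%. The mean over 4 neural markers was 1.62% to 4.99% in Asxl1 guide and 7.52% to 7.90% in double libraries, with 0 called. No T cell, B cell, erythroid or stromal marker was tested for H3K4me1. The part of these markers in the Foxs1 difference was not tested.

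In the other H3K4me1 comparisons limma called 0 of the 4 genes. Against control, the Asxl1 guide had a background of 0.0974% and 0 genes with an unadjusted p under 0.05, with Foxo3 lowest in p at -2.52 points. CSF3R T618I had a background of 8.8% and 1 gene with an unadjusted p under 0.05, Foxs1 at -16.2 points (adjusted p = 0.1558), which was called at -23.6 points without CSF3R T618I replicate 3. Double against CSF3R T618I had a background of 10.5% and 1 gene with an unadjusted p under 0.05, Foxo3. It had 14.5%, 13.7% and 21.3% in CSF3R T618I and 10.6% and 7.53% in double libraries, a difference of -7.44 points with an adjusted p of 0.09414. The interaction had a background of 0.877% and 0 genes with an unadjusted p under 0.05, with Foxs1 lowest in p at -13.3 points.

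Other developmental transcription factor families gave a point of reference. Of 23 listed genes of the Pax, sine oculis homeobox and Lhx families, 23 reached the minimum for H3K27me3, and 2 fell in double against CSF3R T618I cells, against the background of 11.9%: Six4 and Six5 of muscle and sensory organs. Six5 had 45.1% in CSF3R T618I and 6.25% in double cells, a difference of -38.9 points (adjusted p = 0.01178 in limma), and it was 43.0 points higher in CSF3R T618I than in control cells (adjusted p = 0.02613). Between CSF3R T618I and control cells 1% of all genes were called. For H2AK119ub 19 of the 23 were tested. Between Asxl1 guide and control cells Six5 was called lower, at -38.4 points, and Pax9, of the pharyngeal pouches, higher, at 13.1 points. The backgrounds there were 9.23% of all genes lower and 0.369% higher. Between double and Asxl1 guide cells Six5, Lhx1 and Pax2 were called higher, at 36.1, 22.7 and 11.8 points, against a background of 9.1%. Pax9 and Lhx4 were higher in double than in CSF3R T618I cells, by 15.04 and 20.5 points, against a background of 3.59%. Of 35 Polycomb and Asxl1/Bap1 complex genes, 4 were tested for H3K27me3 and 6 for H2AK119ub. In double against CSF3R T618I cells the PRC1 subunit genes Pcgf1, at -23.4 points of H3K27me3 (adjusted p = 0.03619 in limma), and Pcgf2, at -18.4 points of H2AK119ub (adjusted p = 0.01222 in limma), were the 2 calls on that list in these comparisons. The backgrounds were 11.9% of all genes lower for H3K27me3 and 6.98% for H2AK119ub.

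Among the 46 other genes with H3K27me3 above the minimum, the profile over 10 libraries most like that of Foxf1 was that of Tbx2, with a Pearson r of 0.94. For Sox1 it was Foxe1 at 0.99, and for Tbx1 it was Foxa2 at 0.96. These are descriptions over 10 libraries that differ in covered length.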

How the data were processed

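The deposited files are peak lists, 1 per CUT&Tag library, that hold positions only; per the submitters' processing notes, reads were aligned to mm10 with Bowtie2 2.4.1 and handled with deepTools 3.5. How peaks were called is not given in the sources used here. Genes came from RefSeq on GRCm38.p6, the same assembly as mm10. For each gene, the percent of its window (gene plus 5 kb each side) inside peaks was computed in each library with Python 3.11.15 and pandas 2.3.3.

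For each mark, genes with a mean of at least 5% over the 10 libraries entered a limma 3.58.1 fit (R 4.3.3) over 4 genotype groups and 5 comparisons, with p-values adjusted by Benjamini-Hochberg over all genes tested and a threshold of 0.05. The procedure was run on simulated data with normal noise, mid-range means and a capped spread. Values at the ends of the scale and the wide Asxl1 guide spread were not simulated, so that run does not show how reliable the calls are. Genes named were up to 3 calls in each direction or else the lowest p of each comparison, the 2 widest of each family and mark, a preset list of blood and developmental members, and the genes most alike over libraries; the other calls, Foxd1 and Foxd2 among them, and Foxs1, Sox14, Sox18 and Sox21 where they have no call, were named after seeing their values. The genes and lists were chosen with earlier results of these data known. Windows of 250 bp around start sites, parts of windows, longest peaks and counts of groups without overlap were chosen after seeing the data. Alternatives were a 2 kb flank, other filters, peaks of at least 500 bp, no peaks overlapping the merged list of 2 IgG libraries, an arcsine scale, overlap of any length, covered length as a covariate, a replicate block and each library left out. 1 gene of the rule is counted in the totals and not reported here by name.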

Additional observations from a re-analysis of the deposited data

How the results depend on the processing

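Counts of called genes changed with several choices, and 1 named difference turned direction. The share of all genes called under each alternative is not given beside these counts. They show how the calls move and nothing particular to these genes. For H3K27me3 in double against CSF3R T618I cells, 9 genes became 0 with no filter, with overlap of any length or with a replicate block, and 19 with covered length as a covariate. That covariate also gave 8 calls for Asxl1 guide against control, 6 for CSF3R T618I against control, 1 for double against Asxl1 guide and 1 for the interaction, where there had been 0. A 2 kb flank gave 2 for CSF3R T618I against control. For H2AK119ub, 3 genes lower in Asxl1 guide became 0 with no filter or the covariate, 1 without peaks overlapping IgG peaks and 1 other gene, higher, with any overlap. The 1 call in CSF3R T618I against control became 0 with no filter, with the filter of 20% in 2 libraries and with a replicate block. On the arcsine scale and with any overlap it was lost and 1 other gene was called. The 4 calls in double against CSF3R T618I became 2 with a 2 kb flank or peaks of at least 500 bp, 1 with the 20% filter or without IgG overlap, 0 with no filter, any overlap or a replicate block, and 11 with the covariate. The 4 in double against Asxl1 guide became 1 with a 2 kb flank or a replicate block and 0 with no filter, any overlap or the covariate, and the interaction gave 1 with any overlap. The H3K4me1 call became 0 with no filter or any overlap. With any overlap, the 45 windows with an H3K27me3 peak in every library cannot differ.

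The reversed value was Foxj1 H2AK119ub in double against Asxl1 guide, -5.92 points without IgG overlap against 44.4. That setting drops a whole peak where any part of it overlaps an IgG peak, and IgG peaks cover 6.76% of the Foxj1 window. The longest H2AK119ub peak at Foxj1 was 9.15 and 6.2 kb in double and 1.45, 0.3 and 1.0 kb in Asxl1 guide libraries. The cause of these changes was not tested. The replicate numbers were not taken as pairing the libraries, since not every same-number pair correlated above 0.1: over 13 pairs a mark, correlations of deviations for H3K27me3 lay between -0.40 and 0.31 (mean -0.02), for H2AK119ub between -0.18 and 0.08 (mean -0.01), and for H3K4me1 between -0.09 and 0.43 (mean 0.18), with 12 of 13 above 0. Leaving out 1 library gave 0 to 25, 0 to 12, 0 to 40 and 0 to 2 calls for H3K27me3 in Asxl1 guide against control, CSF3R T618I against control, double against CSF3R T618I and double against Asxl1 guide. For H2AK119ub it gave 0 to 3, 0 to 2, 0 to 7 and 0 to 9 in that order and 0 to 3 for the interaction, and for H3K4me1 0 to 1 in CSF3R T618I against control and 0 to 1 in double against Asxl1 guide. A group left with 1 library is assumed to vary like the others.

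The mean over the 76 genes without IgG overlap was 16.3% in control, 12.9% in Asxl1 guide, 20.9% in CSF3R T618I and 12.4% in double cells for H3K27me3. For H2AK119ub it was 11.5%, 9.45%, 13.05% and 11.3% in that order, and the control mean fell by over 1.5 times, from 17.7%. Depth is unknown, so a gap between peaks may be weak signal as well as none.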
